A study of Homo sapiens with 6 samples.

Results

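The 10 genes described here encode enzymes and partners of DNA methylation (DNMT1, DNMT3A, DNMT3B and UHRF1), of its removal (TET1, TET2 and TET3) and of Polycomb repressive complex 2, PRC2 (EZH2, SUZ12 and EED). The rule that defines them uses gene symbols only, it was set with earlier results of these data known, and all 10 were found among the 15953 genes of the deposited log2 CPM tables (CPM are read counts scaled by library size). The RNA came from EJ, an established human bladder cancer cell line. Lentivirus was used to make cells with stable knockdown of STIL (shSTIL, 3 libraries) and control cells (shNC, 3 libraries), so both groups carried a lentiviral construct and differed in the hairpin. STIL is needed for centriole duplication, and the study compared the transcriptomes of these cells to look for genes downstream of it. The study lists siRNA sequences against STIL, but which sequence the hairpin carried, how many hairpins were used and whether a line was 1 clone are not given in the sources used here. Column headings of the tables write siNC and siSTIL where the sample labels write shNC and shSTIL, and the libraries were grouped by the labels.

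DNA methylation is copied at each replication: UHRF1 recognises the hemimethylated daughter strand and recruits DNMT1, which methylates the new strand, whereas DNMT3A and DNMT3B also methylate unmarked DNA. TET enzymes oxidise methylcytosine, which leads to its loss. PRC2 is a separate system of repression: EZH2 methylates a lysine of histone H3 when bound to SUZ12 and EED, and EZH1 can take its place.

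The recovered depth was 16214771 to 16431240 reads in the shNC libraries and 16734469 to 16901634 in the shSTIL libraries. STIL had a log2 CPM of 5.98, 6.10 and 6.01 in the shNC libraries and of 4.05, 4.06 and 4.01 in the shSTIL libraries, so that 25.2% of the control remained (limma adjusted p = 6.1e-12). In the limma fit over all genes, 47.1% of them were differentially expressed genes (DEGs, adjusted p under 0.01), 23.6% lower and 23.5% higher in shSTIL cells. The shNC and shSTIL values were fully separate for 60.3% of all genes. Nothing in the labels says that the libraries of a group came from separate cultures, so p-values measure only the spread between these libraries, whose biological coefficient of variation was 3.02%. Of 14 measured epithelial and urothelial markers, 5 had a mean log2 CPM of 1 or more over the 6 libraries, namely KRT18 (9.32 in shNC cells), KRT8 (8.56), KRT7 (6.503), PPARG (4.28) and FOXA1 (3.33). The other 9, EPCAM, CDH1, GATA3 and TP63 among them, were lower. Markers of other cell types (macrophage, endothelial, fibroblast and others) had rows for 7 of 14 genes in the tables used here, with a summed level of 18.1 to 22.2 CPM in shNC and 22.6 to 24.8 CPM in shSTIL libraries.

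RefSeq promoter windows (GRCh38.p14, 250 bases before to 50 bases after a start site, the first listed window of each gene) were available for all 10 genes. They are shown for the members whose window holds a word bound by E2F factors, the regulators of genes of DNA replication, and for TET3, the member with the larger rise. The words searched were TTTCCCGC, TTTGGCGC, TTTCGCGC and TTTGCCGC on both strands, and capitals mark the matches. The windows lie at chr19:4909251-4909550 (UHRF1, plus strand), chr19:10194904-10195203 (DNMT1, minus strand), chr7:148884242-148884541 (EZH2, minus strand), chr17:31936757-31937056 (SUZ12, plus strand) and chr2:73984660-73984959 (TET3, plus strand). Each is written 5′ to 3′ on the strand of the gene.
UHRF1: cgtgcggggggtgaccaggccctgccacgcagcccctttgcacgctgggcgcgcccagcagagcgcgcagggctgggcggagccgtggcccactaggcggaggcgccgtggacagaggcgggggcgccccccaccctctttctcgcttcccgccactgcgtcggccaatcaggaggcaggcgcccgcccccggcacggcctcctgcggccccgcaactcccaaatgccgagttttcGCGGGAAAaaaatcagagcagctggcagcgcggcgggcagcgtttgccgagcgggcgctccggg
DNMT1: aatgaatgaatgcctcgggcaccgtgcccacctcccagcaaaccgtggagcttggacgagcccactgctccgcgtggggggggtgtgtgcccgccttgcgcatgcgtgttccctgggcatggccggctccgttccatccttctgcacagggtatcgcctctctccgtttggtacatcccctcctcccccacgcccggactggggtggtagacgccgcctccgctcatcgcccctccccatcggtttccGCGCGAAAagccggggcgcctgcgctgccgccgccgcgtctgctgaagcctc
EZH2: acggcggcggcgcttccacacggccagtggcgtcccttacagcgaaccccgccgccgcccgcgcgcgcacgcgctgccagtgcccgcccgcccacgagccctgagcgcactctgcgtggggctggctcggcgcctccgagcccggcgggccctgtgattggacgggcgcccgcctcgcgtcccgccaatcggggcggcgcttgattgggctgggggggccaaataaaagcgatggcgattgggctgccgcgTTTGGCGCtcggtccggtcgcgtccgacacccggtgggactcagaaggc
SUZ12: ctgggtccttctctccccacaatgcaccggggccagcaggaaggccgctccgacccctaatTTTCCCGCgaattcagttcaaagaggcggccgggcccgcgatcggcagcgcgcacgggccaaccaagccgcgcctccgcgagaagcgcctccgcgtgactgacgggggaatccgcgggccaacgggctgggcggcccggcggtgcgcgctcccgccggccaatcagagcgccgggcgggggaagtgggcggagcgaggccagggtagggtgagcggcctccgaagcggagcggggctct
TET3: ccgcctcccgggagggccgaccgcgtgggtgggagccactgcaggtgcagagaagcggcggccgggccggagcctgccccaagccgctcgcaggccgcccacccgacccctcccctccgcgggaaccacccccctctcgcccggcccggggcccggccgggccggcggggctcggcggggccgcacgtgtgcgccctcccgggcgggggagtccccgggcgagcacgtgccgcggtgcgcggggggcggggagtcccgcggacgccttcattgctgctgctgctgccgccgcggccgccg
An E2F word was present in 4 of the 10 first windows, beside 5.0% of the windows of 12621 genes measured here and 3.3% of all 27305 windows. In UHRF1 the word lay from position -14 to -7 relative to the start site, in DNMT1 from -2 to 6, in EZH2 from 2 to 9 and in SUZ12 from -189 to -182. The windows of DNMT3A, DNMT3B, TET1, TET2, TET3 and EED held none of these words. The CCAAT word of factor NF-Y, searched on both strands, was present in the windows of DNMT3B, UHRF1, EZH2 (4 matches), SUZ12 and EED, 5 of 10 genes, beside 36.3% of those of the measured genes, and it overlapped no E2F word. The window of TET3 had a GC content of 82.7% and held 45 CpG dinucleotides, and that of DNMT3B had a GC content of 61.7% and held 3. The DNMT3B window lies well inside the gene as GENCODE 29 places it, as do those of DNMT1 and UHRF1, so these windows describe an internal start and not the first start of that annotation. Those of TET3 and TET1 lie wholly before the gene in that annotation. Matches also depended on the window taken. An E2F word was in 1 of 2 EZH2 and 2 of 3 UHRF1 windows. CCAAT, absent from the first windows of TET1 and TET3, was in 2 of 3 and 1 of 2 of their windows. A match is a description of the sequence, and binding was not measured.

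Of the 10 members, 7 fell in shSTIL cells (UHRF1, DNMT1, DNMT3B, TET1, EZH2, SUZ12 and EED), beside 23.6% of all genes, 2 rose (TET3 and TET2), beside 23.5%, and DNMT3A was not called. All 10 had a mean log2 CPM of 1 or more, where calls were more frequent than over all genes. A fit of the 11319 genes at that level called 3768 lower and 3680 higher. The share of those genes whose groups did not overlap was not computed. The median log2 fold change of the members was -0.35, beside 0.01 over all genes. The groups did not overlap for any of the 10, beside 60.3% of all genes, and the exact permutation p (two-sided) was 0.1 for each, the smallest p that 3 libraries against 3 allow. The summed level of the members was 674 to 684 CPM in shNC libraries and 480 to 501 CPM in shSTIL libraries. In bulk RNA, fewer cells that express a gene and less RNA per cell cannot be told apart.

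**Figure D1:**
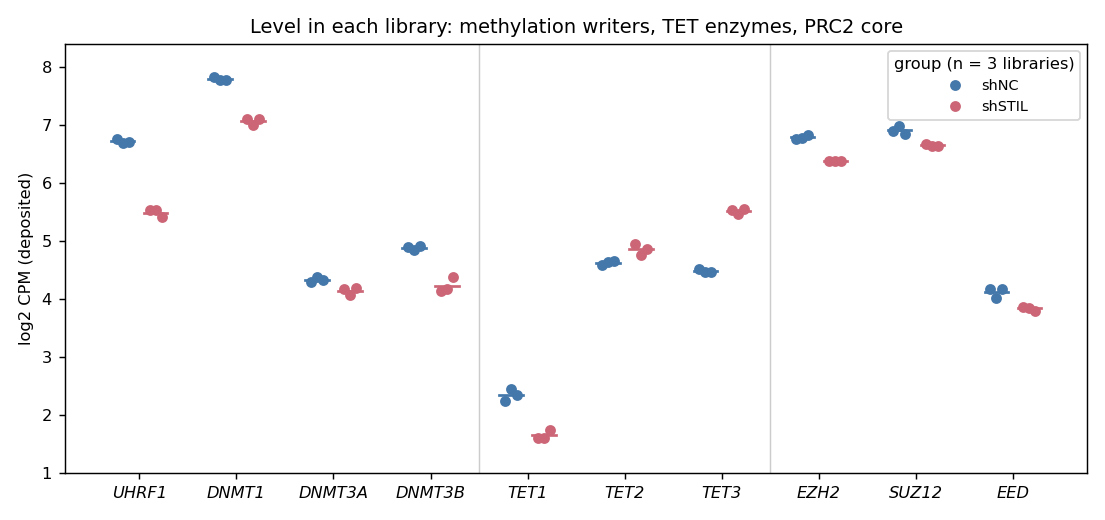
Deposited log2 CPM (y axis) of the 10 members (x axis) in the 3 shNC and 3 shSTIL libraries, with points for libraries and short lines for group means. No member's groups overlap, the shSTIL points of TET2 and TET3 lie above the shNC points, and those of the other 8 members lie below.

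UHRF1, the reader of hemimethylated DNA (GRCh38, chr19:4903080-4962154, plus strand, 17 exons in its longest coding transcript), had the largest fall among the members. Its log2 CPM was 6.76, 6.69 and 6.71 in the shNC libraries and 5.53, 5.53 and 5.41 in the shSTIL libraries. All shSTIL libraries lay more than 1 log2 unit below all shNC libraries, and the reads behind them went from 1669 to 1735 down to 719 to 794. The log2 fold change was -1.23 (SE 0.04, 95% confidence interval -1.33 to -1.14, limma adjusted p = 8.2e-11), which is 42.6% of the shNC level. It ranked 283 among all 15953 genes when ordered from the largest fall. DNMT1, the maintenance methyltransferase (chr19:10133345-10231286, minus strand, 41 exons), had log2 CPM values of 7.84, 7.78 and 7.77 in shNC and 7.10, 6.995 and 7.11 in shSTIL libraries. The shSTIL libraries of DNMT1 were again all below the controls. Its log2 fold change was -0.73 (SE 0.04, 95% confidence interval -0.81 to -0.65, limma adjusted p = 2.6e-09), or 60.4% of the shNC level. The UHRF1, DNMT1 and EZH2 windows printed above each carry an E2F word within 14 bases of the start site. DNMT3B and TET1, with log2 fold changes of -0.65 and -0.70, had no such word in their first windows. The UHRF1 and DNMT1 windows describe internal starts, as said above. The part of E2F factors in these falls was not tested.

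The de novo methyltransferases were lower than DNMT1 per transcript length in both groups. DNMT3B (chr20:32762385-32809356, plus strand, 23 exons) had log2 CPM values of 4.89, 4.85 and 4.91 in shNC and 4.15, 4.17 and 4.38 in shSTIL libraries. The third shSTIL library was the highest of its group and still lay below every control. The log2 fold change of DNMT3B was -0.65 (SE 0.07, limma adjusted p = 2.9e-06), or 63.6% of the shNC level. DNMT3A (chr2:25227855-25342590, minus strand, 23 exons) had log2 CPM values of 4.29, 4.37 and 4.33 in shNC and 4.18, 4.07 and 4.20 in shSTIL libraries. These groups were separate but close, with a log2 fold change of -0.18 (SE 0.07, 95% confidence interval -0.33 to -0.04, limma adjusted p = 0.0331), which missed the threshold of 0.01. The log2 ratio of DNMT3A to DNMT3B within a library was -0.60, -0.48 and -0.57 in shNC and 0.03, -0.10 and -0.18 in shSTIL libraries. It was higher in every shSTIL library, by 0.47 (exact permutation p = 0.1, 0.118 after adjustment over the 13 ratios computed).

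UHRF1 was lower relative to each of the other methylation genes in every shSTIL library. The log2 ratio of UHRF1 to DNMT1 was -1.08 ± 0.01 (SD, n = 3) in shNC and -1.58 ± 0.12 in shSTIL libraries, and that to DNMT3B went from 1.84 ± 0.03 to 1.26 ± 0.20, in an exact permutation test with p = 0.1 (adjusted 0.118) for both. DNMT1 relative to DNMT3A went from 3.47 ± 0.08 to 2.92 ± 0.01 without overlap. In contrast, the ratio of DNMT1 to DNMT3B was 2.95, 2.93 and 2.86 in shNC and 2.96, 2.83 and 2.73 in shSTIL libraries. These ranges overlapped, and the difference of -0.07 had an exact permutation p of 0.4 (adjusted 0.433). With 3 libraries a group this p cannot be under 0.1 for any ratio, so only the overlap sets this pair apart. The falls of DNMT1 and DNMT3B were not told apart.

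**Figure D2:**
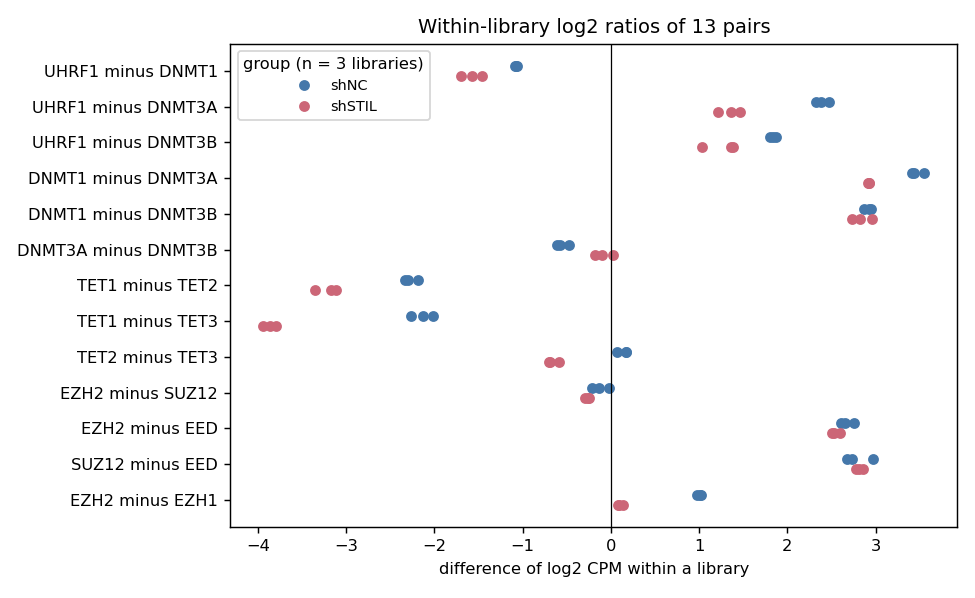
Difference of log2 CPM between 2 genes within a library (x axis) for 13 pairs (rows), with points for the 3 shNC and 3 shSTIL libraries. The groups of 11 pairs do not overlap, and those of DNMT1 with DNMT3B and of SUZ12 with EED do.

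Genes that work with DNMT1 and UHRF1 were described from a list of 8 maintenance partners, of which 5 fell, 1 rose and 2 were not called, with a median log2 fold change of -0.61. Without DNMT3L, which lay near the floor in both groups, it was -0.77. Over all genes 23.6% fell and 23.5% rose. The PCNA-associated factor PCLAF fell by 1.78 on the log2 scale (limma adjusted p = 5.1e-11), DNA ligase LIG1 by 1.61 (9.6e-12) and the chromatin remodeller HELLS by 1.61 (8.6e-11). CDCA7, the partner of HELLS, fell by 0.77 (7.5e-09) and its relative CDCA7L by 0.45 (1.1e-05). The UHRF1 paralog UHRF2 rose, with log2 CPM values of 5.21, 5.46 and 5.29 in shNC and 5.76, 5.71 and 5.72 in shSTIL libraries (log2 fold change 0.41, SE 0.06, limma adjusted p = 4.4e-05). The deubiquitinase USP7 (-0.13, adjusted p = 0.0389) was not called, and neither was DNMT3L, a cofactor of the de novo enzymes (0.18, adjusted p = 0.634). Per kilobase of the longest coding transcript, UHRF1 was at 26.2 RPKM and UHRF2 at 11.4 RPKM in shNC cells, and they were at 11.5 (10.8 to 11.9) and 15.6 (15.5 to 15.9) RPKM in shSTIL cells, so the order of these paralogs changed.

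The 5 genes whose 6 log2 CPM values, centred on the gene mean, lay closest to those of UHRF1 among 9942 genes at a mean of 3 or more were CALR, SHMT1, PKM, ASAP3 and SOX4. Their root mean square differences from UHRF1 were 0.040 to 0.047 log2 units over the 6 libraries, and their log2 fold changes lay between -1.27 and -1.23. They were chosen for this likeness, so these values carry no test.

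A list of 34 S phase replication genes holds none of the members, and all 34 fell, beside 23.6% of all genes. Their median log2 fold change was -1.02, with a range from -2.80 to -0.42. Their summed level was 4183 to 4216 CPM in shNC and 1867 to 1886 CPM in shSTIL libraries. UHRF1 had a larger fall than this median, and DNMT1, DNMT3B, TET1, EZH2, SUZ12 and EED had smaller falls. The part of the S phase genes in the falls of the members was not tested.

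The TET enzymes moved in both directions. TET3 (chr2:73986404-74108176, plus strand, 11 exons) had log2 CPM values of 4.51, 4.46 and 4.47 in shNC and 5.54, 5.47 and 5.55 in shSTIL libraries. Every shSTIL library was about 1 log2 unit above the controls, and the reads went from 351 to 364 up to 758 to 795. The log2 fold change was 1.04 (SE 0.05, 95% confidence interval 0.93 to 1.147, limma adjusted p = 1.7e-09), a 2.05-fold rise, and TET3 ranked 470 among all genes when ordered from the largest rise. TET1 (chr10:68560656-68694482, plus strand, 12 exons), the least abundant member, had log2 CPM values of 2.24, 2.45 and 2.35 in shNC and 1.61, 1.60 and 1.75 in shSTIL libraries. These values rest on 74 to 87 reads and 50 to 55 reads a library, and the highest shSTIL library was below the lowest control. The log2 fold change of TET1 was -0.70 (SE 0.14, 95% confidence interval -1.01 to -0.38, limma adjusted p = 9.7e-04), the widest interval among the members.

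TET2 (chr4:105145875-105279816, plus strand, 11 exons) had log2 CPM values of 4.58, 4.63 and 4.65 in shNC and 4.96, 4.77 and 4.86 in shSTIL libraries. The shSTIL libraries were all higher, by a log2 fold change of 0.24 (SE 0.06, 95% confidence interval 0.11 to 0.37, limma adjusted p = 0.00459). This call was lost when shNC replicate 1, 2 or 3 was left out (limma adjusted p = 0.0423, 0.0337 and 0.0312) and when shSTIL replicate 1 or 3 was left out (0.0274 and 0.0454). DESeq2 also did not call TET2 (adjusted p = 0.0124). Within a library, the log2 ratio of TET2 to TET3 was 0.07, 0.17 and 0.18 in shNC and -0.59, -0.70 and -0.69 in shSTIL libraries. It was above 0 in every shNC and below 0 in every shSTIL library, with a difference of -0.80 (exact permutation p = 0.1, adjusted 0.118). The log2 ratio of TET1 to TET3 went from -2.14 ± 0.13 (SD, n = 3) to -3.87 ± 0.07, the largest difference of the 13 ratios, at -1.73 (exact permutation p = 0.1, adjusted 0.118). Over transcript length, TET2 was at 2.30 to 2.41 RPKM and TET3 at 1.90 to 1.96 RPKM in shNC libraries, and they were at 2.72 to 3.08 and 3.94 to 4.15 RPKM in shSTIL libraries, without overlap in either group. Per kilobase of coding sequence TET2 was not above TET3 in shNC cells (3.98 and 4.06), so their order there depended on the length taken.

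Among 5 genes that act with TET enzymes, 2 fell, 1 rose and 2 were not called, with a median log2 fold change of -0.12. Over all genes 23.6% fell and 23.5% rose. IDH1 and IDH2, which make the TET cosubstrate 2-oxoglutarate, fell, with log2 fold changes of -0.58 (limma adjusted p = 3.8e-09) and -0.85 (1.5e-08). OGT, a glycosyltransferase that binds TET proteins, rose by 0.23 (adjusted p = 0.00017). The DNA glycosylases TDG (-0.12, adjusted p = 0.139) and SMUG1 (0.00, adjusted p = 0.973) were not called.

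**Figure D3:**
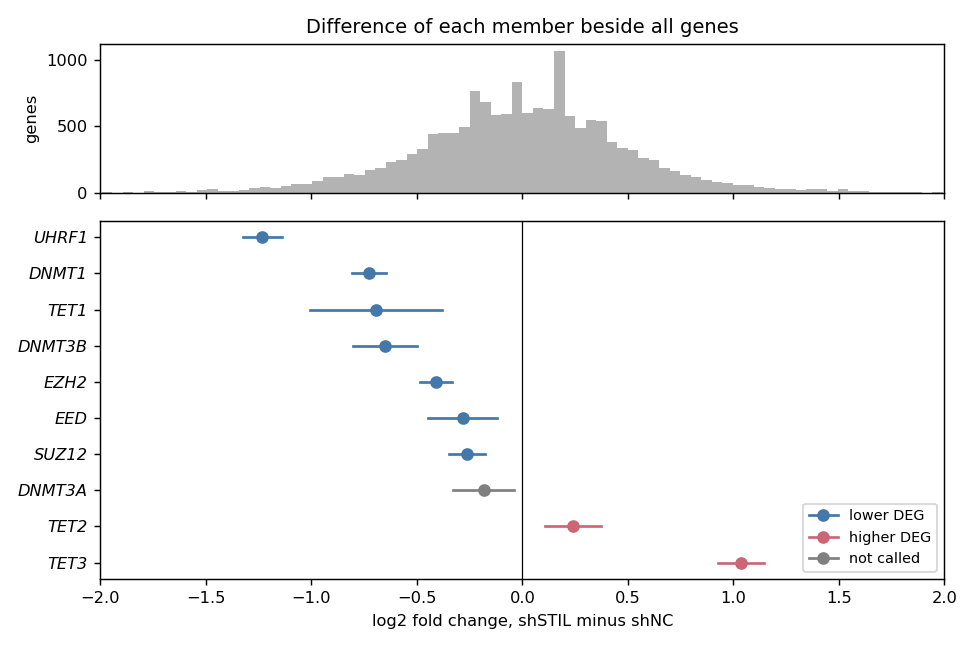
Upper panel, number of genes by log2 fold change (x axis, shSTIL minus shNC) over all genes, leaving out the 91 genes beyond 2 in either direction, and lower panel, log2 fold change of each member with its 95% confidence interval from limma. UHRF1 at -1.23 and TET3 at 1.04 lie at the ends of the members.

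All 3 core PRC2 genes fell, to between 75.3% and 83.4% of their shNC level. EZH2, the catalytic subunit (chr7:148807383-148884321, minus strand, 20 exons), had log2 CPM values of 6.77, 6.77 and 6.84 in shNC and 6.38, 6.38 and 6.38 in shSTIL libraries. The shSTIL libraries were nearly identical and all below the controls, with 1415 to 1434 reads against 1747 to 1816. The log2 fold change of EZH2 was -0.41 (SE 0.03, 95% confidence interval -0.49 to -0.33, limma adjusted p = 3.0e-07), or 75.3% of the shNC level. SUZ12 (chr17:31937018-32001045, plus strand, 16 exons), the scaffold of the complex, had log2 CPM values of 6.90, 6.99 and 6.85 in shNC and 6.68, 6.63 and 6.65 in shSTIL libraries. All shSTIL libraries were below the controls, by a log2 fold change of -0.26 (SE 0.04, limma adjusted p = 6.7e-05), and 83.4% was left. The call of SUZ12 was lost without shSTIL replicate 2 or 3 (limma adjusted p = 0.0111 and 0.0126).

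EED (chr11:86244544-86278813, plus strand, 13 exons), which binds the methylated histone, had log2 CPM values of 4.17, 4.02 and 4.18 in shNC and 3.87, 3.85 and 3.79 in shSTIL libraries. The second control was lower than the others and above every shSTIL library, and the log2 fold change was -0.28 (SE 0.08, limma adjusted p = 0.00586), with 82.2% left. The call was lost when shNC replicate 1 or 3 was left out (limma adjusted p = 0.0308 and 0.0328) and when shSTIL replicate 1, 2 or 3 was left out (0.024, 0.0285 and 0.0347). DESeq2 gave an adjusted p of 0.0229 for EED. The log2 ratio of SUZ12 to EED was 2.74, 2.97 and 2.68 in shNC and 2.81, 2.78 and 2.85 in shSTIL libraries. These ranges overlapped (difference 0.02, exact permutation p = 0.9). The ratios of EZH2 to SUZ12 and to EED were lower in every shSTIL library, by 0.15 and 0.13 on the log2 scale (exact permutation p = 0.1, adjusted 0.118 for both). These separations were narrow. For EZH2 to SUZ12 the lowest shNC value was -0.22 and the highest shSTIL value -0.25 (shNC SD 0.10). For EZH2 to EED they were 2.60 and 2.59 (shNC SD 0.08).

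EZH1, the other catalytic subunit of PRC2, went the opposite way. Its log2 CPM was 5.75, 5.79 and 5.83 in shNC and 6.29, 6.30 and 6.24 in shSTIL libraries, a log2 fold change of 0.49 (SE 0.04, limma adjusted p = 2.0e-07). The log2 ratio of EZH2 to EZH1 was 1.02, 0.98 and 1.01 in shNC and 0.09, 0.08 and 0.14 in shSTIL libraries, without overlap (difference -0.90, exact permutation p = 0.1, adjusted 0.118). Per transcript length, EZH2 fell from 41.3 to 32.0 RPKM and EZH1 rose from 11.8 to 17.02 RPKM, so EZH2 stayed above EZH1 in both groups. The size of this gap depended on the length taken. Per kilobase of coding sequence EZH2 and EZH1 were at 48.4 and 24.3 in shNC cells, and at 37.5 and 35.1 in shSTIL cells.

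The 11 other PRC2 subunits had rows for 10 genes, of which 3 fell, 3 rose and 4 were not called, with a median log2 fold change of -0.07. These shares, 30% in each direction, lay near those over all genes, 23.6% lower and 23.5% higher. The histone-binding subunits RBBP4 and RBBP7 fell, with log2 fold changes of -0.60 (limma adjusted p = 2.2e-09) and -0.40 (2.3e-07), as did the accessory subunit MTF2 at -0.19 (0.00671). PHF1, another accessory subunit, rose by 0.20 (adjusted p = 0.00038) and LCOR by 0.28 (0.00016). JARID2, AEBP2, PHF19 and EPOP were not called.

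Some forms of PRC1 bind chromatin that PRC2 has marked. Of the 20 genes of the PRC1 list, 10 rose (50%), 3 fell (15%) and 7 were not called, with a median log2 fold change of 0.19. Over all genes 23.5% rose and 23.6% fell. All 20 had a mean log2 CPM of 1 or more, where 3680 of 11319 genes were called higher and 3768 lower. SCMH1 (0.81, limma adjusted p = 1.2e-08), YAF2 (0.68, 1.3e-07), BMI1 (0.58, 3.8e-05) and PHC2 (0.56, 3.2e-09) rose. The chromobox protein CBX2, which binds the mark made by EZH2, fell by 0.99 on the log2 scale (adjusted p = 1.3e-07), PCGF3 by 0.47 (7.3e-08) and KDM2B by 0.42 (0.00015). Of 5 measured enzymes and cofactors that oppose Polycomb, the histone demethylase KDM6B rose by 0.71 (adjusted p = 2.5e-07) and ASXL1 by 0.14 (0.00237), BAP1 fell by 0.15 (0.00203), and KDM6A and ASXL2 were not called.

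Of 8 genes from families of methyl-CpG binding proteins, not all of which need bind methylated CpG, 3 rose, 1 fell and 4 were not called (median log2 fold change 0.14). Over all genes 23.5% rose and 23.6% fell. In this list, ZBTB38 (0.98, limma adjusted p = 2.2e-09) and ZBTB4 (0.33, 1.4e-05) rose, and MBD2 fell by 0.17 (0.00055). MBD1, MBD3, MBD4 and ZBTB33 were not called. In the methyl donor cycle, MAT2A, which makes S-adenosylmethionine, rose by 0.47 (2.9e-08) and MTRR by 0.26 (0.00025), while methionine synthase MTR fell by 0.50 (2.6e-07) and AHCY by 0.12 (0.00355). MAT2B (-0.13, adjusted p = 0.0182) was not called.

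**Figure D4:**
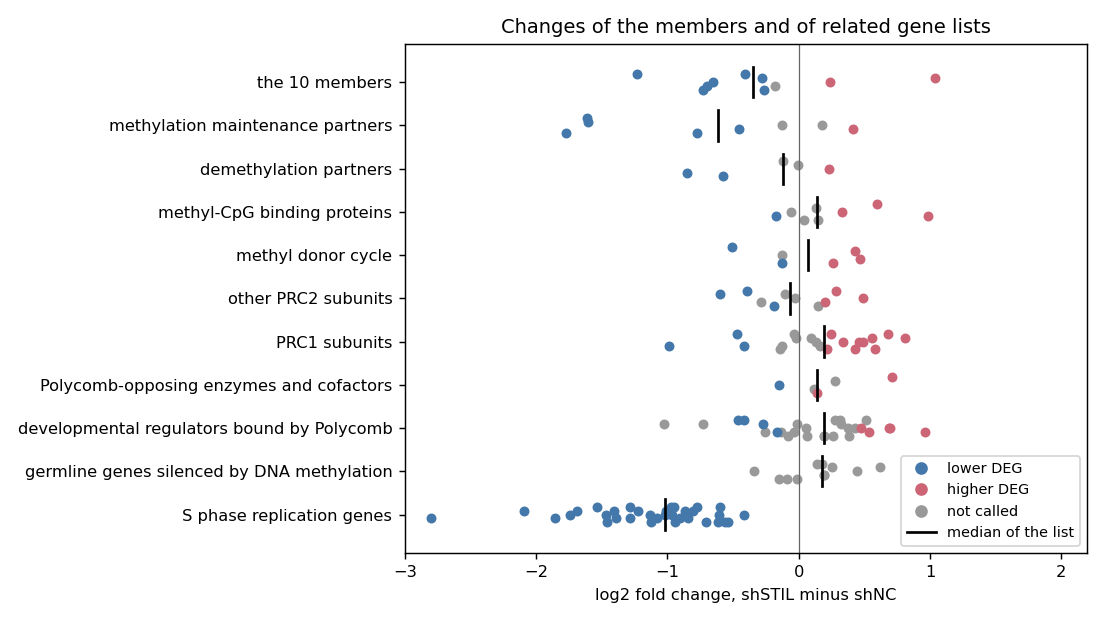
Log2 fold change (x axis, shSTIL minus shNC) of the 10 members and of the genes of 10 related lists (rows), coloured by the limma call at an adjusted p under 0.01, with a vertical bar at the median of each list. The S phase genes lie wholly below 0, and the PRC1 list has its median at 0.19.

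Genes often silenced by these systems were read out as well. Of 23 germline genes that DNA methylation silences in somatic cells, 11 had a row, with 10 of them under a mean log2 CPM of 1. Limma called 0 of the 11, with 1 at an unadjusted p under 0.05, and edgeR and DESeq2 each called 0. HORMAD1 was the exception in level, with a mean of 2.72 in shNC and 2.98 in shSTIL libraries (log2 fold change 0.26, adjusted p = 0.0544). Of 28 measured developmental regulators bound by Polycomb in other cells, 5 rose (17.9%), 4 fell (14.3%) and 19 were not called. Over all genes these shares were 23.5% and 23.6%. The median log2 fold change of the list was 0.19, and its summed level was 895 to 958 CPM in shNC and 819 to 839 CPM in shSTIL libraries. Most of this sum came from PAX8, which fell, so the sum does not describe the list as a whole. Not all of its genes were silent: 16 had a mean log2 CPM of 1 or more, with PAX8 at 9.26 and CDKN2A at 6.63 in shNC cells. CDKN2B, an inhibitor of cyclin-dependent kinases, rose by 0.96 (limma adjusted p = 9.7e-06), HOXD10 by 0.70 (0.00076), WT1 by 0.69 (0.00609), MSX1 by 0.54 (0.00163) and HOXA10 by 0.47 (0.00021). GATA2 fell by 0.42 (0.00599) and PAX8 by 0.27 (6.2e-06). CDKN2A, from the same locus as CDKN2B, was not called (0.06, adjusted p = 0.359). DNA methylation and histone marks were not measured in these libraries.

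Per transcript length, the order of the members in shNC cells was DNMT1 (42.1 RPKM), EZH2 (41.3), SUZ12 (26.5), UHRF1 (26.2), EED (10.04), DNMT3B (6.68), TET2 (2.37), DNMT3A (2.08), TET3 (1.92) and TET1 (0.527). The ranges of DNMT1 and EZH2 overlapped, as did those of SUZ12 and UHRF1. In shSTIL cells the order was EZH2 (32.0), DNMT1 (26.2), SUZ12 (22.7), UHRF1 (11.5), EED (8.49), DNMT3B (4.38), TET3 (4.08), TET2 (2.89), DNMT3A (1.88) and TET1 (0.330). DNMT1 lay below EZH2 without overlap in shSTIL cells, TET3 moved from below DNMT3A to above TET2, and the ranges of DNMT3B (4.11 to 4.84) and TET3 (3.94 to 4.15) overlapped in shSTIL cells. These orders depend on the transcript taken: per kilobase of coding sequence, SUZ12 was first in shNC cells at 53.6, ahead of EZH2 at 48.4 and DNMT1 at 44.7.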

How the data were processed

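RNA-seq libraries of EJ cells were sequenced on the BGISEQ-500 platform. The authors mapped the reads with Bowtie2 (build hg38 per the labels) and obtained gene-level estimates from RSEM. The deposited tables used here hold log2 CPM of 15953 genes for 6 libraries, and expected counts of 15957 genes for 4 of them. Expected counts share reads between similar transcripts. The deposited log2 CPM include a prior count of 2, so log2 fold changes understate the change of genes with few reads.

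The log2 CPM of all genes were fitted with limma 3.58.1 in R 4.3.3 (lmFit, eBayes with a trend, no replicate block, Benjamini-Hochberg adjustment over all genes). DEGs had an adjusted p under 0.01. Reads were recovered from the log2 CPM values. The scale of a library was fitted to the deposited counts in the 4 libraries that have them. For shNC replicates 2 and 3 it came from the spacing of the values. In each library 87.5% to 87.9% of the values came out whole within 0.01 read, and those of all members did so. The largest gap to a deposited count was 0.000384 read, in libraries scaled to those same counts. It therefore does not check the reads of shNC replicates 2 and 3. Recovered reads were rounded for edgeR 4.0.16 and DESeq2 1.42.0, used as alternatives because the count tables used here cover 1 control library.

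RPKM were computed from recovered reads and the longest coding transcript of GENCODE 29 (GRCh38), and gene positions are from that annotation. RPKM used the plain total of recovered reads of a library, whereas the deposited log2 CPM use a normalized library size. A change in RPKM can therefore differ somewhat from the log2 fold change of the same gene. Ratios within a library were compared by two-sided exact permutation of the 20 possible labellings. The members and lists were chosen with earlier results of these data known. Named genes were the members, STIL, genes of short lists and some of the DEGs with the largest change in longer lists. The 5 genes most like the member with the largest change were also named. CDKN2A, HORMAD1, EPCAM, CDH1, GATA3, TP63, KRT18, JARID2, AEBP2, PHF19, EPOP and KDM2B were named outside that rule, after their values were seen. Some genes counted in the lists are not reported here by name.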

Additional observations from a re-analysis of the deposited data

How the results depend on the processing

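The number of DEGs, the number of members called and the members' log2 fold changes were recomputed under 16 alternatives each, the 13 ratios with another prior count and with each library left out, and the list medians with a minimum mean log2 CPM of 1. STIL, the calls of list genes and the RPKM orders were not recomputed. UHRF1, DNMT1, DNMT3B, TET3 and EZH2 kept their direction and call under all 16, and no member changed direction. The number of DEGs was 5855 without the trend, 7337 with quantile normalization, 7448 with a minimum mean log2 CPM of 1, 7828 with edgeR, 6782 with DESeq2, 8988 at an adjusted p under 0.05, 3317 when limma tested against a 1.2-fold change (treat), and 4900 to 5638 with 1 library left out, lowest without shSTIL replicate 3. The members called numbered 5 with treat, 7 with DESeq2, 9 with edgeR and 6 to 8 with 1 library left out. The treat test lost TET1 (-0.70, adjusted p = 0.0223), TET2 (0.24, 1), SUZ12 (-0.26, 0.941) and EED (-0.28, 0.797). At an adjusted p under 0.05, DNMT3A (-0.18) was called.

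TET2 was also lost without the trend (0.24, limma adjusted p = 0.0209) and with DESeq2 (0.25, 0.0124), and EED without the trend (-0.28, 0.0107), with quantile normalization (-0.23, 0.0187) and with DESeq2 (-0.28, 0.0229). With 1 library left out, log2 fold changes ranged from 0.19 to 0.29 for TET2, from -0.29 to -0.23 for SUZ12 and from -0.33 to -0.25 for EED. The cause was not tested.

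Deviations of libraries with the same replicate number correlated at -0.12, -0.06 and -0.11, so the numbers were not taken as pairs. With the replicate block there were 6898 DEGs and 7 members called, and TET2 (0.24, limma adjusted p = 0.0136) and EED (-0.28, 0.0145) were lost. All 13 ratios kept their direction or moved by less than the spread between replicates. Depth limits TET1, with 50 to 87 reads a library.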
